A study of Mus musculus with 6 samples.

Results

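The genes described here are the metallothioneins Mt1, Mt2 and Mt3, the metal-sensing transcription factor Mtf1, the zinc exporter Slc30a1 and the zinc importer Slc39a14. They were chosen by gene symbol and make up 6 of 33641 genes and 30 of 105129 transcript rows of the expression table. RNA came from the quadriceps muscle of 6 male littermate mice, born to heterozygous parents and 4 months (about 16 weeks) old, with tissue taken at about ZT4, which is 4 h after lights on. In 3 mice (homozygous, labelled Homo) both copies of Nr3c1, the glucocorticoid receptor gene, carried an allele that mimics the human variant rs6190, and in 3 mice (WT) both copies were the reference allele. No tissue-restricted driver, drug or other treatment is named in the labels. Values are TPM, a transcript abundance that corrects for length and sums to 1000000 in each library, so levels can be compared between genes. Each library is 1 mouse, and the tests measure the spread between these mice.

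Metallothioneins are small, cysteine-rich proteins that bind zinc and copper and take up free metal and oxidants. MTF-1, the product of Mtf1, senses free zinc and binds metal response elements in the promoters of Mt1, Mt2 and Slc30a1, so that zinc storage and export rise with zinc. Mt1 and Mt2 are also known as glucocorticoid-responsive genes, and metallothioneins and Slc39a14 are known to rise in wasting muscle. Slc39a14 (ZIP14) brings zinc, iron and manganese into the cell, and Slc30a1 (ZnT1) carries zinc out across the plasma membrane.

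The libraries differed in make-up. Depth, estimated from the steps between low TPM values, was 15.8 to 21.7 M fragments (M, 1000000), and mitochondrially encoded transcripts took 14.3% to 33.9% of TPM. The muscle markers Acta1, Ckm, Mb, Myh4, Tnnt3 and Pvalb were present in every library and summed to 74615 to 92477 TPM in homozygous and 78027 to 144305 TPM in WT libraries. The 10 slow-fibre genes summed to 1683 to 9157 TPM in homozygous and 207 to 1580 TPM in WT libraries. Of these 10, 6 were higher in every homozygous than in any WT library, against 34.7% of all genes tested. WT replicate 3 stood apart, with the lowest slow-fibre sum (207 TPM) and the highest fast-fibre sum (231886 TPM, the other 5 libraries lying between 96656 and 131359 TPM). Nr3c1 itself was 20.01, 19.7 and 19.5 TPM in homozygous and 11.5, 14.8 and 8.07 TPM in WT libraries, a level that does not check which allele a mouse carried. In whole muscle, fewer cells of a type and less RNA per cell cannot be told apart.

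Mt3, Mt2 and Mt1 lie in this order on the plus strand of chromosome 8 (GRCm38, GENCODE M21), at chr8:94152607-94154146, chr8:94172664-94173568 and chr8:94179082-94180327. The gap from Mt3 to Mt2 is 18517 bp and that from Mt2 to Mt1 is 5513 bp. Mtf1 is at chr4:124802104-124849800 and Slc30a1 at chr1:191906767-191913247, both on the plus strand, and Slc39a14 is at chr14:70303469-70351425 on the minus strand. The main transcript of each metallothionein has 3 exons, with a coding length of 183 nt in Mt1 and Mt2 and 204 nt in Mt3. Of the runs of 31 bases in their transcripts, 0 of 1273 in Mt1, 3 of 573 in Mt2 (with Pip5k1a) and 0 of 1065 in Mt3 also occur in another gene, so no such run is shared between the metallothioneins.

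The sequences that follow show where matches to the metal response element lie near the annotated start of genes that MTF-1 is known to regulate. Mt3, which is known not to follow metals in the same way, is set beside them. Each is the 250 bases before the RefSeq start on GRCm38.p6, plus strand, 5′ to 3′, with matches to the element in capitals. RefSeq promoters were found for Mt1, Mt2, Mt3, Mtf1 and Slc30a1, and Slc39a14 had none in the table used.
Mt1 promoter, chr8:94178839-94179088: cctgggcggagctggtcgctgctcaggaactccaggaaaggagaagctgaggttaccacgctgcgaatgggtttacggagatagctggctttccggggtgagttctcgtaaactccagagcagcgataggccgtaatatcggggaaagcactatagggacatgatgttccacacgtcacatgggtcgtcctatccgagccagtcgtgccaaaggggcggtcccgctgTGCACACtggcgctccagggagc
Mt2 promoter, chr8:94172368-94172617: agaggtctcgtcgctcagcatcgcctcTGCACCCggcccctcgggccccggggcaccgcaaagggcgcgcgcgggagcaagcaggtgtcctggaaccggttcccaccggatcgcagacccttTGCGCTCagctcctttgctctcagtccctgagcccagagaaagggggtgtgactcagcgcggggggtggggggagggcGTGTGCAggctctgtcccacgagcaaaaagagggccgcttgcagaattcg
Slc30a1 promoter, chr1:191906531-191906780: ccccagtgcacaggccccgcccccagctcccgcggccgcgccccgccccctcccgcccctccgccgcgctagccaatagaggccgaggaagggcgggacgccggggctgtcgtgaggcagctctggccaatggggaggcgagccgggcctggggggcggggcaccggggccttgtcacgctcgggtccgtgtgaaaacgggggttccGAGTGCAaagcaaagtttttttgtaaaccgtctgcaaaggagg
Mt3 promoter, chr8:94152357-94152606: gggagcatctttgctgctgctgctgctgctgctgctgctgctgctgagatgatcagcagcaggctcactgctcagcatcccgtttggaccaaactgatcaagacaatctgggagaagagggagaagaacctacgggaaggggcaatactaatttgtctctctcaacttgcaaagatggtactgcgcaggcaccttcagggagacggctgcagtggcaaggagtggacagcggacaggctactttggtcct

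The element was searched as TGCACNC and TGCGCNC on both strands, over the 250 bases before and 50 bases after the start. Matches that fell after the start are shown as stretches of 30 bases.
Mt1 site after the start, chr8:94179089-94179118: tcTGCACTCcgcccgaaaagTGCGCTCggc
Mt2 site after the start, chr8:94172618-94172647: ggtcGTGCGCAggcccaggggcgtgtgctg
Slc30a1 site after the start, chr1:191906799-191906828: cgcctccgggccGAGCGCAgtcgccgcgga
Mt3 site after the start, chr8:94152622-94152651: tcgggacagcagTGCACACacacggagagc

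The window held 4 matches in Mt2, 3 in Mt1, 2 in Slc30a1, 1 in Mt3 and 0 in Mtf1. Among 32544 promoter windows of the same length, 25.9% held at least 1 match, 7.17% at least 2, 1.99% at least 3 and 0.522% at least 4. The antioxidant response element, searched as TGACNNNGC on both strands, matched 1 time in Mt2 and 1 time in Slc30a1, and 12.4% of all windows held it. The glucocorticoid response element, searched as AGAACA, then NNN, then TGTTCT on both strands, was in 0 of the 5 windows and in 0.00922% of all. A match this strict is so rare that 0 of 5 cannot tell whether these genes have such an element. Looser matches and sites outside the windows were not searched. AGAACA alone, which is part of that element, matched 1 time, in Mtf1, and was in 18.9% of all windows. GENCODE starts Mt2 46 bases downstream of the RefSeq start, Mt1 7 bases upstream and Slc30a1 14 bases upstream, so whether a match lies before or after the start depends on the annotation. The rows Mt1-203 and Mt1-202 start further downstream, at chr8:94179211 and chr8:94179241, past the end of the window. The count for Mt1 therefore holds for this window only, and which matches are used was not tested.

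Mt2 was higher in each homozygous than in any WT library, without passing the threshold. It was 62.4, 75.4 and 118 TPM in homozygous and 27.8, 26.6 and 57.7 TPM in WT libraries, in the order of replicates 1, 2 and 3, which holds throughout. Homozygous replicate 3 was highest, and the gap between the groups, from WT replicate 3 to homozygous replicate 1, was narrow. Group means were 85.4 ± 29.2 and 37.4 ± 17.6 TPM (SD, n = 3 each), a ratio of 2.28. On the log2(TPM + 1) scale the difference, homozygous minus WT, was 1.21 (SE 0.33; limma, adjusted p 0.168), where the threshold is an adjusted p of 0.05. Over all 11099 genes tested the median of this difference was 0.26, and Mt2 lay 0.95 above it.

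Mt1 did not separate the genotypes. It was 59.98, 93.7 and 106 TPM in homozygous and 39.2, 31.99 and 108 TPM in WT libraries, so WT replicate 3 held the highest value of all 6 and the groups overlapped. Group means were 86.7 ± 24.001 and 59.7 ± 41.8 TPM (SD, n = 3 each), a ratio of 1.45, and the log2 difference of 0.70 (SE 0.45; limma, adjusted p 0.335) was within the spread between replicates. Without WT replicate 3 it was 1.23 and without WT replicate 2 it was 0.37 (limma, adjusted p 0.159 and 0.5902).

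Mt1 and Mt2 did not keep a fixed ratio. Mt1 divided by Mt2, both in TPM, was 0.961, 1.24 and 0.9001 in homozygous and 1.41, 1.204 and 1.87 in WT libraries. Homozygous replicate 2 lay above WT replicate 2, so these ratios overlapped. Their means were 1.03 ± 0.183 and 1.49 ± 0.340 (SD, n = 3 each; exact permutation test, two-sided, p = 0.2, the smallest possible being 0.1).

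Mt3, the metallothionein best known from brain, was close to the limit of detection. It was 1.71, 2.84 and 0.243 TPM in homozygous and 0.938, 1.03 and 1.94 TPM in WT libraries. These values rest on an estimated 12.03, 14.9 and 0.996 fragments in homozygous and 5.99, 4.99 and 12.01 in WT libraries. The homozygous group held both the highest and the lowest value, and no difference was detectable at this depth (log2 difference 0.05, SE 0.39; limma, adjusted p 0.934). By contrast Mt1 rested on an estimated 189 to 735 fragments per library and Mt2 on 142 to 597.

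**Figure D1:**
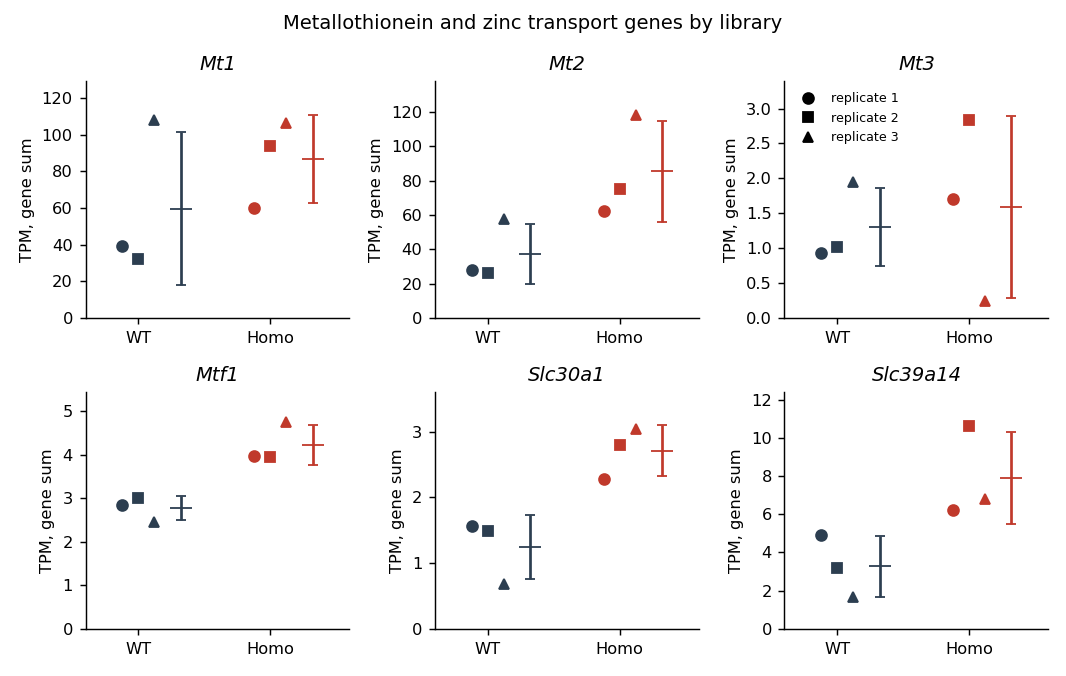
TPM summed over the transcript rows of each gene, by genotype, on linear axes from 0, with 1 point per library and bars for mean ± SD of 3 libraries. Homozygous points lie above all WT points for Mt2, Mtf1, Slc30a1 and Slc39a14, while WT replicate 3 holds the highest Mt1 value and the groups overlap for Mt3.

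Mtf1 was low and narrow in range, and its groups did not overlap. It was 3.97, 3.95 and 4.75 TPM in homozygous and 2.85, 3.003 and 2.46 TPM in WT libraries. Group means were 4.22 ± 0.453 and 2.77 ± 0.279 TPM (SD, n = 3 each), a ratio of 1.52, and the log2 difference was 0.47 (SE 0.16; limma, adjusted p 0.1702). Mtf1 lay 0.20 above the median of all genes. Quantile normalization gave 0.17, median centring 0.17, and the value was 0.08 with a trend on transcript length removed.

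Slc30a1, the exporter known to be induced by MTF-1, was likewise higher in each homozygous library without passing the threshold. It was 2.28, 2.801 and 3.04 TPM in homozygous and 1.56, 1.48 and 0.685 TPM in WT libraries, with WT replicate 3 lowest. Group means were 2.71 ± 0.388 and 1.24 ± 0.485 TPM (SD, n = 3 each), a ratio of 2.18. The log2 difference of 0.75 (SE 0.21; limma, adjusted p 0.168) exceeded the median gene by 0.48. Median centring put it at 0.44, and it was 0.38 with the length trend removed and 1.13 with a pseudocount of 0.1. The table lists Slc30a1 in 4 rows that form 2 pairs of identical values, and counting each pair 1 time gives means of 1.35 and 0.622 TPM with the same ratio. Counted in this way it was 1.14, 1.40 and 1.52 TPM in homozygous and 0.782, 0.741 and 0.342 TPM in WT libraries. Only the homozygous libraries then reach the 1 TPM of the filter. Every log2 difference and test of Slc30a1 given here rests on all 4 rows and was not refitted. On log2(TPM + 1) the difference would be smaller with each pair counted 1 time.

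On gene sums, Slc39a14 had the highest ratio of group means among the members, while Mt2 had the higher log2 difference, at 1.21. It was 6.22, 10.6 and 6.81 TPM in homozygous and 4.91, 3.19 and 1.69 TPM in WT libraries. No WT library reached the lowest homozygous one, homozygous replicate 2 was the highest and WT replicate 3 the lowest. Group means were 7.89 ± 2.396 and 3.27 ± 1.61 TPM (SD, n = 3 each), a ratio of 2.42. Its log2 difference was 1.10 (SE 0.31; limma, adjusted p 0.168), or 0.83 above the median of all genes.

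Slc39a14 had the same order across libraries as the slow-fibre genes. Averaged over the 10 slow-fibre genes, log2(TPM + 1) came to 6.31, 8.84 and 6.68 in homozygous and 6.28, 5.69 and 3.21 in WT libraries. Pearson's r with Slc39a14 was 0.964 and Spearman's rho 1 over 6 libraries, and r was 0.957 over the 4 left without WT replicate 3 and homozygous replicate 2; these points share their libraries and scaling, so the values describe likeness only. With the slow-fibre mean as a covariate the log2 difference of Slc39a14 was 0.41, that of Slc30a1 0.44, that of Mt1 1.27 and that of Mt2 1.72 (limma, adjusted p 0.762 for each). This likeness was not particular to Slc39a14. Pearson's r with the slow-fibre mean was 0.873 for Slc30a1, 0.696 for Mtf1, 0.265 for Mt2, 0.110 for Mt3 and 0.00147 for Mt1. Of 6842 genes compared, 1088 had r over 0.9 with Slc39a14, and the share of all genes with the slow-fibre order was not counted. Fibre make-up and genotype cannot be told apart here, since the slow-fibre mean was itself higher in the homozygous libraries.

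**Figure D2:**
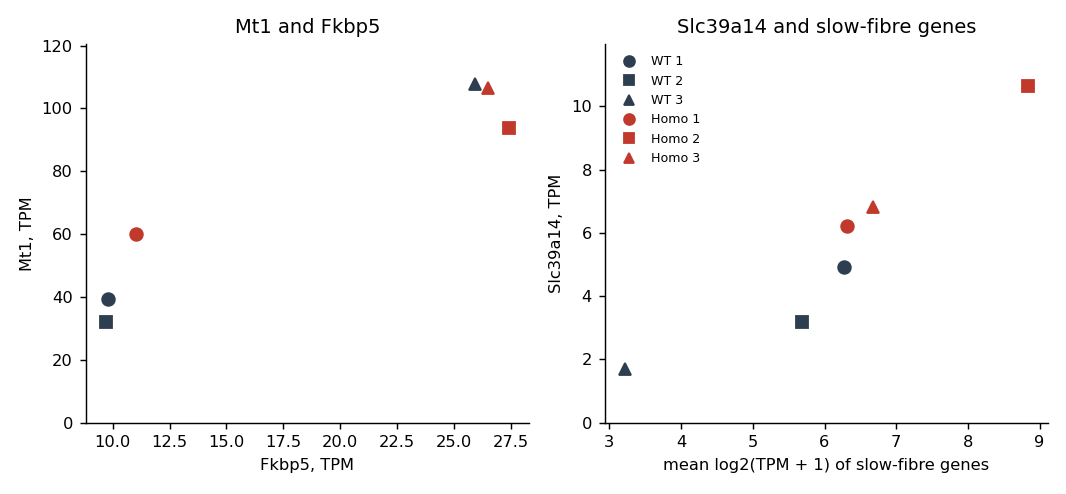
Left, Mt1 against Fkbp5, both in TPM, with 1 point per library; right, Slc39a14 in TPM against the mean log2(TPM + 1) of 10 slow-fibre genes. WT replicate 3 sits with homozygous replicates 2 and 3 in the left plot, and Slc39a14 follows the order of the slow-fibre mean in all 6 libraries in the right one.

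By level, the members fell into 3 tiers. Mt1 and Mt2 were the highest in both groups, and their means differed by less than the SD of Mt1. Slc39a14 and Mtf1 followed, at 3.27 and 2.77 TPM in WT, a gap smaller than the SD of Slc39a14, and at 7.89 and 4.22 TPM in homozygous libraries. Slc30a1 and Mt3 were the lowest, at 1.24 and 1.302 TPM in WT and 2.71 and 1.596 TPM in homozygous libraries, gaps smaller than the SD of Mt3. With its identical rows counted 1 time, Slc30a1 (0.622 TPM in WT and 1.35 TPM in homozygous libraries) was below Mt3 in both groups.

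Of the 6 members, 0 passed the threshold, as did 0% of all genes. At an unadjusted p under 0.05 in limma, Mt2, Mtf1, Slc30a1 and Slc39a14 (4 of 6) were higher and 0 lower in homozygous muscle, against 23.7% of all genes higher and 0.55% lower. The same 4 had groups that did not overlap, with homozygous libraries higher, against 34.7% of all genes, and 0 members lay wholly lower, against 0.73%. The log2 difference was above 0 for 6 of 6 members and for 85.8% of all genes, and its median was 0.72 in the members and 0.26 in all genes. With quantile normalization 504 of the 986 genes at an unadjusted p under 0.05 were higher, in place of 2636 of 2697, so the differences of single genes are given against the median as well. Without WT replicate 3 the groups did not overlap for 5 of 6 members, Mt1 being added, against 42.1% of all genes, and the log2 difference was 1.56 for Mt2, 0.80 for Slc39a14, 0.55 for Slc30a1 and 0.41 for Mtf1. With array weights, which gave WT replicate 3 a weight of 0.199, Mt2, Mt1 and Slc30a1 passed (limma, adjusted p 0.0396, 0.0471 and 0.0458), as did 7.3% of all genes.

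**Figure D3:**
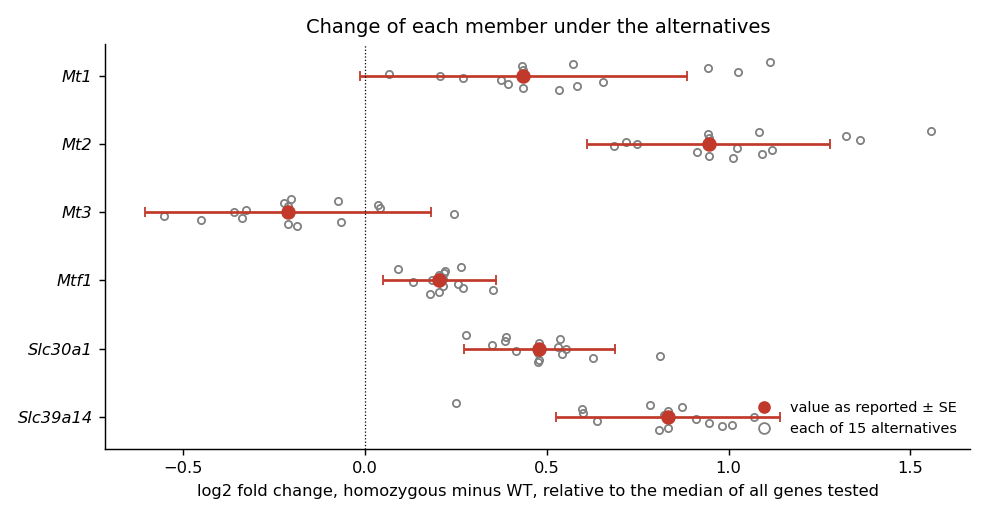
Log2 difference of each member, homozygous minus WT, relative to the median of all genes in the same fit; filled points with bars give the reported value ± SE and open points the 15 alternatives. Mt2, Slc39a14, Slc30a1, Mtf1 and Mt1 lie to the right of 0 in all of them, Mt1 by as little as 0.07, and Mt3 lies on both sides.

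Nearly all of Mt1 and Mt2 sat in 1 transcript row each. The spliced row Mt1-201 (549 nt) held 98.6%, 99.7% and 99.1% of Mt1 in homozygous and 97.3%, 100% and 91.1% in WT libraries. The rest lay in Mt1-202, a single exon that spans both introns, and Mt1-203, which keeps the second intron. In WT replicate 3 these were 4.68 and 4.92 TPM, and in no other library above 1.03 and 0.7302 TPM. The Mt2 row Mt2-202, whose first exon starts inside that of Mt2-201 and runs into the first intron, was also highest in WT replicate 3, at 13.2 TPM or an estimated 50.2 fragments, against 0 to 4.49 TPM in the others. On Mt2-201 alone (511 nt) the values were 60.1, 72.7 and 114 TPM in homozygous and 26.7, 26.6 and 44.5 TPM in WT libraries, without overlap, and the log2 difference was 1.30 (SE 0.30; limma, adjusted p 0.252), adjusted over isoforms.

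Slc39a14 was spread over more rows than the other members. Of its 13 rows 4 were listed at 0 in all libraries, among them the full-length rows Slc39a14-201 and Slc39a14-210. The full-length row Slc39a14-202 was 3.53, 5.26 and 4.22 TPM in homozygous and 2.61, 2.48 and 1.44 TPM in WT libraries. Its group means were 4.34 ± 0.871 and 2.18 ± 0.641 TPM (SD, n = 3 each), a lower ratio than the 2.42 of the gene sum. The other rows held 5.37 TPM of the gene sum in homozygous replicate 2, its highest library. Each homozygous library again lay above every WT library (log2 difference 0.76, SE 0.24; limma, adjusted p 0.278). Slc39a14-202 has a longer last exon than Slc39a14-201 (3344 against 516 nt), and the way reads were shared among rows is not known from the labels. The partial row Slc39a14-209 was 0.745, 1.29 and 0.282 TPM in the homozygous mice, while every WT value is listed at 0, on an estimated 1.43 to 6.37 fragments.

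Of the 30 member rows, 6 passed the filter and 0 of these passed the threshold, against 0.0425% of all isoforms tested. At an unadjusted p under 0.05 in limma, Mt2-201 and Slc39a14-202 were higher, against 14.2% of all isoforms. The main Mtf1 row, Mtf1-201, was 2.79, 3.38 and 3.43 TPM in homozygous and 2.18, 3.002 and 1.55 TPM in WT libraries. WT replicate 2 lay above homozygous replicate 1 there, so the separation of the gene sum was not seen in this row (log2 difference 0.39, SE 0.23; limma, adjusted p 0.413). Mtf1-204, annotated as a retained intron, was 1.09, 0.568 and 0.741 TPM in homozygous and 0.336, 0 and 0.532 TPM in WT libraries and did not overlap in TPM. It rested on an estimated 12.6, 5.01 and 6.66 fragments in homozygous and 3.52, 0 and 5.38 in WT libraries, which do overlap, and it was not tested. Mtf1-202, a coding row with another first exon, went the other way: it was close to 0 in all 3 homozygous libraries and 0.329, 0.0002299 and 0.382 TPM in WT libraries, on an estimated 40.9, 0.0252 and 45.3 fragments there, and was too low to be tested. Beyond its 5′ end all bases of Mtf1-202 are also in Mtf1-201. These fragments are therefore a share assigned to the row, not a count over its own first exon.

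Other zinc transporters gave smaller differences than Slc39a14 and Slc30a1. In general the SLC30 family moves zinc out of the cytosol and the SLC39 family moves it in, though not every member has been placed here by its own direction. Of 10 SLC30 genes 7 passed the filter, 0 passed the threshold in limma (2 at an unadjusted p under 0.05, against 23.7% of all genes) and 3 did not overlap (Slc30a1, Slc30a5 and Slc30a9, against 34.7%), with a median log2 difference of 0.38. Slc30a9 was the most abundant, at 47.4, 42.3 and 39.97 against 38.6, 36.1 and 20.8 TPM. Slc30a5, which loads zinc into the secretory pathway, was 3.91, 4.67 and 4.94 against 3.14, 3.72 and 2.84 TPM. Slc30a2, known for loading zinc into vesicles, overlapped and was highest in WT replicate 3, at 9.16, 4.19 and 5.23 against 5.19, 5.42 and 11.9 TPM. Slc30a4 had the next highest log2 difference after the members among the transporters tested, at 0.60 (SE 0.32; limma, adjusted p 0.256), with overlap.

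Of 14 SLC39 genes 8 passed the filter, 0 passed the threshold (3 at an unadjusted p under 0.05, against 23.7% of all genes) and 3 did not overlap (Slc39a14, Slc39a3 and Slc39a7, against 34.7%), and the median log2 difference was 0.22. Slc39a7, which releases zinc from the endoplasmic reticulum, was 26.7, 26.1 and 29.7 against 23.1, 22.6 and 21.3 TPM. Slc39a3 was 6.75, 6.41 and 6.89 against 5.46, 5.09 and 4.99 TPM. Both differences, 0.28 (SE 0.12) and 0.31 (SE 0.13) on the log2 scale, were close to the median of all genes. Slc39a1 overlapped at 20.5, 17.4 and 17.2 against 18.1, 19.5 and 16.4 TPM, as did Slc39a13 at 19.2, 13.2 and 17.2 against 14.2, 16.4 and 15.6 TPM. The groups also overlapped for Slc30a6, Slc30a7, Slc39a2, Slc39a9 and Slc39a10.

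**Figure D4:**
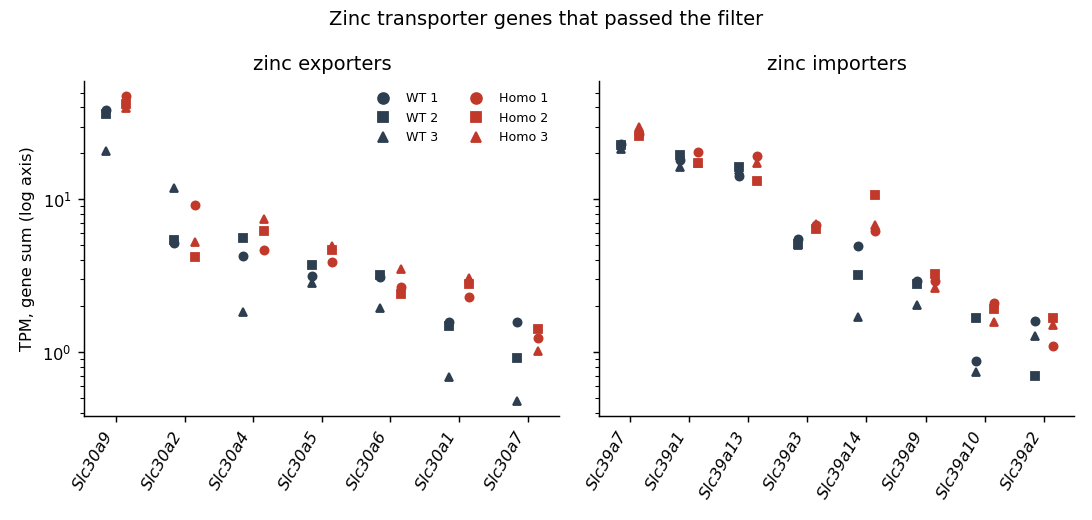
TPM by library on a log axis for the zinc exporter and zinc importer genes that passed the filter, with 1 point per library. The genotypes separate for Slc30a1, Slc30a5, Slc30a9, Slc39a3, Slc39a7 and Slc39a14 and overlap for the others.

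Among 8 genes tied to MTF-1 (Mt1, Mt2, Slc30a1, Gclc, Selenow, Ndrg1, Csrp1 and Slc39a10), 0 passed the threshold in limma. At an unadjusted p under 0.05 in limma, 3 were higher, against 23.7% of all genes. Mt2, Slc30a1 and Ndrg1 did not overlap, against 34.7% of all genes. Ndrg1, a gene known to respond to hypoxia and metals, was 7.72, 10.98 and 7.61 TPM in homozygous and 6.67, 5.84 and 3.66 TPM in WT libraries, with a log2 difference of 0.63 (SE 0.23; limma, adjusted p 0.178). The list's median was 0.56, and 3 of its 8 genes are members themselves. Its genes were not separated by whether MTF-1 raises or lowers them, so the count and the median do not measure MTF-1 activity.

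Glucocorticoid targets did not all follow genotype. Fkbp5, a co-chaperone of the receptor that the receptor induces, was 11.04, 27.4 and 26.5 TPM in homozygous and 9.79, 9.698 and 25.9 TPM in WT libraries. It was high in homozygous replicates 2 and 3 and WT replicate 3, the libraries that were also highest in Mt1; they form a high and a low cluster, so no correlation is given. Tsc22d3 (GILZ) was 142, 144 and 176 against 107, 149 and 199 TPM, also highest in WT replicate 3. Zbtb16 was 9.92, 19.1 and 15.2 against 7.43, 7.37 and 7.49 TPM, without overlap and with WT replicate 3 among the low libraries. Of 18 such genes 0 passed the threshold in limma (4 at an unadjusted p under 0.05, against 23.7% of all genes), 4 did not overlap (Foxo1, Errfi1, Zbtb16 and Foxo3, against 34.7%), and the median log2 difference was 0.15. The part of receptor activity in the level of Mt1 was not tested.

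In the antioxidant response, which shares stimuli with metallothioneins, 6 of 12 genes did not overlap, against 34.7% of all genes. In limma 0 passed the threshold (6 higher at an unadjusted p under 0.05, against 23.7% of all genes). Srxn1, which repairs peroxiredoxins, was 19.8, 36.4 and 37.6 TPM in homozygous and 10.2, 11.3 and 12.4 TPM in WT libraries, a log2 difference of 1.34 (SE 0.24; limma, adjusted p 0.168). Txnrd1, the cytosolic thioredoxin reductase, was 30.4, 32.7 and 34.2 against 20.8, 21.3 and 18.1 TPM, and the factor gene Nfe2l2 was 18.97, 25.9 and 22.4 against 16.6, 15.6 and 11.6 TPM. Gclm and Gsr, of glutathione synthesis and recycling, were 21.8, 31.8 and 36.3 against 15.4, 20.2 and 17.7 TPM and 7.97, 11.1 and 9.61 against 7.005, 7.56 and 4.92 TPM. Keap1, which holds NRF2 back, was 33.2, 37.97 and 44.2 against 29.6, 25.8 and 28.1 TPM. The list's median log2 difference was 0.40.

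Interleukin 6 is known to raise Slc39a14 in liver. Of 8 genes of its pathway 6 were tested, 0 passed the threshold (4 at an unadjusted p under 0.05, against 23.7% of all genes) and 5 did not overlap (Socs3, Il6st, Stat3, Cebpb and Jak1, against 34.7%), with a median log2 difference of 0.51. Il6 itself and its receptor gene Il6ra did not pass the filter and were not tested. Il6 was 0.109, 0.175 and 0 TPM in homozygous and 0, 0.135 and 0 TPM in WT libraries. Il6ra was 0.833, 1.72 and 1.80 against 0.756, 0.743 and 0.342 TPM. Socs3, the feedback inhibitor, was 19.03, 6.22 and 9.86 TPM in homozygous and 3.89, 1.71 and 0.677 TPM in WT libraries, a log2 difference of 2.05 (SE 0.47; limma, adjusted p 0.168). The receptor subunit Il6st was 36.1, 36.7 and 42.2 against 25.5, 25.8 and 15.1 TPM and Stat3 was 10.9, 15.2 and 14.2 against 8.82, 9.53 and 6.46 TPM. Homozygous replicate 1 was highest in Socs3 and homozygous replicate 2 in Slc39a14. The part of interleukin 6 signalling in the level of Slc39a14 was not tested.

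Markers of other cells varied as well. Mbp and Pmp22, genes of the myelin made by Schwann cells, were 15.9, 20.2 and 5.27 against 4.07, 5.03 and 2.52 TPM and 24.6, 33.3 and 13.8 against 7.89, 12.96 and 8.09 TPM. Neither overlapped, and their log2 differences were 1.46 (SE 0.44) and 1.18 (SE 0.32). Over all genes tested, 34.7% had homozygous values wholly above WT and 0.73% wholly below, the shares against which the marker counts here stand. Immune markers summed to 65.1 to 78.1 TPM in homozygous and 23.4 to 89.2 TPM in WT libraries, with 1 of 4 tested (Cd68) not overlapping and Cd79a at 0 in 1 library. Endothelial markers summed to 79.7 to 93.99 TPM in homozygous and 64.7 to 79.7 TPM in WT libraries, with 2 of 7 not overlapping. None of the 5 adipocyte, 5 blood and 6 fibroblast markers tested was free of overlap, and their sums were 219 to 237 TPM in homozygous and 195 to 247 TPM in WT libraries, 536 to 781 TPM in homozygous and 476 to 851 TPM in WT libraries and 167 to 196 TPM in homozygous and 88.2 to 239 TPM in WT libraries. The part of these cells in the members' values was not tested.

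The genes most like each member were taken by Pearson correlation of log2(TPM + 1) over the 6 libraries, among tested genes with a mean of at least 5 TPM. For Mt1 they were Psmb6 (r = 0.995), a proteasome subunit, Atox1 (r = 0.992), a copper chaperone, and Eef1b2 (r = 0.991), a translation factor. For Mt2 they were Adpgk (r = 0.997), Atp6v0e2 (r = 0.996) and Sec13 (r = 0.994), and for Slc39a14 Atp6v1h (r = 0.998), Stx17 (r = 0.997) and Myl12a (r = 0.996). Most like Slc30a1 were Prdm2 (r = 0.999), Fam53c (r = 0.999) and Nsd1 (r = 0.998), and most like Mtf1 were Pithd1 (r = 0.995), Extl3 (r = 0.994) and Mllt3 (r = 0.993). Mt3 was most like Mpi (r = 0.975), Ppp1r9b (r = 0.958) and Vps51 (r = 0.958). At r over 0.9 there were 170 such genes for Mt1, 192 for Mt2 and 10 for Mt3, but 769 for Mtf1, 1088 for Slc39a14 and 1533 for Slc30a1, of 6842 or 6843 compared. Atp6v1h shares some runs of 31 bases with Slc39a14, of whose 10606 runs 66 occur in any other gene. All 6 points share library scaling, so these values describe likeness only.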

How the data were processed

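Poly-A selected, stranded libraries were grouped by their titles into 3 homozygous and 3 WT. The authors deposited TPM per transcript with gene symbols, per the file headers, and every library sums to 1000000. The submitters' processing notes name FastQC, Trimmomatic, HISAT2, kallisto and mm10, with no role given. All 6 columns matched a library and 0 were left over. Of 30 member rows, 28 are in GENCODE M21 (GRCm38).

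Rows were summed per symbol and taken to log2(TPM + 1), a scale that understates the change of low genes. Features with at least 1 TPM in 3 or more libraries (11099 genes, all 6 members among them, and 21165 isoforms) were fitted in limma 3.58.1 (R 4.3.3) with trend and robust options on genotype alone, and p-values were adjusted by Benjamini-Hochberg over all features (threshold 0.05). Depth was estimated from single-transcript genes of at least 1500 nt, where 67.5% to 69.8% of 668 to 705 low values fell within 0.03 of a whole fragment. On simulated data for this comparison (11099 genes, 200 changed), 0%, 49% and 89.5% of log2 changes of 0.5, 1 and 2 were recovered, with 0, 6 and 8 false calls. The simulation used independent noise for each gene and changes of either sign. It lacked the shift shared by most genes in these libraries, so recovery in the real data may differ.

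Members and lists were chosen with earlier results of these data known. The text names the members and their rows, the non-overlapping genes of each list (at most 6, by smallest p), zinc transporters with a mean of at least 1 TPM, Fkbp5, Tsc22d3, Zbtb16, Nr3c1, Il6, Il6ra, and the 3 genes most like a member. The 15 alternatives were other scalings, filters and pseudocounts, covariates, array weights, a replicate block and leaving out each library. Part of the Schwann cell marker list, with its summary, and 1 sequence comparison are not reported here.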

Additional observations from a re-analysis of the deposited data

How the results depend on the processing

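In the 15 alternatives run for each member, Mt1 (0.37 to 1.27), Mt2 (0.91 to 1.72), Mtf1 (0.08 to 0.59), Slc30a1 (0.38 to 1.13) and Slc39a14 (0.41 to 1.37) kept a positive log2 fold change. With array weights Mt1 (1.16), Mt2 (1.54) and Slc30a1 (0.60) passed the threshold, and in none of the other 14; the cause was not tested. Mt3 turned negative in 9 of 15, at -0.19 with quantile normalization, -0.25 with median centring, -0.13 with a pseudocount of 0.1, -0.0861 with the length trend removed, -0.0411 with the slow-fibre covariate and between -0.30 and 0.51 on leaving out each library. Few fragments limit Mt3. The count of members without overlap on leaving out a library, 4 to 5, was added after seeing the data.

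Genes past the threshold numbered 0, with 810 under array weights and 0 to 2 on leaving out each library (2 without WT replicate 1, 1 without WT replicate 2). Isoforms past it numbered 9, with 3 under quantile normalization, 5 under median centring, 4 with a pseudocount of 0.1, 4 with the length trend removed, 5 with mitochondrial transcripts left out, 14 with array weights and 0 with no filter, with the replicate block or with the slow-fibre covariate. Leaving out each library gave 0 to 38 isoforms (38 without WT replicate 1, 8 without WT replicate 2 and 0 without any of the other 4). The causes were not tested.

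With the replicate number as a block, 0 genes and 0 isoforms passed, and Mt2 had an adjusted p of 0.133 and Mt1 of 0.239 in limma. Libraries with the same number did not deviate together (r across genes -0.0712, 0.06104 and -0.0132), so the numbers were not taken as a pairing.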

Other observations

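Copper and iron genes, whose metals metallothioneins bind or Slc39a14 carries, had lower medians than the members. Of 10 copper genes 8 were tested, 0 passed the threshold in limma (1 at an unadjusted p under 0.05, against 23.7% of all genes) and 1 did not overlap, against 34.7%: Slc31a2, a copper transporter of endosomes, at 7.47, 6.75 and 6.79 against 5.07, 6.04 and 4.07 TPM for homozygous and WT replicates. The median log2 difference of the copper list was 0.23. Atox1 was 41.1, 50.9 and 54.3 against 37.2, 32.1 and 55.96 TPM, highest in WT replicate 3 like Mt1.

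All 10 iron genes were tested, and 0 passed the threshold in limma (0 at an unadjusted p under 0.05, against 23.7% of all genes higher). Fth1, Ireb2 and Aco1 did not overlap, against 34.7% of all genes. The ferritin heavy chain gene Fth1 was 2905, 2993 and 3252 against 2839, 2783 and 2834 TPM, a small difference of 0.11 (SE 0.15; limma, adjusted p 0.632) on the log2 scale. Ireb2 and Aco1, which encode the iron regulatory proteins, were 5.904, 6.801 and 5.84 against 4.602, 5.24 and 2.27 TPM and 4.43, 4.96 and 4.42 against 3.504, 3.66 and 3.37 TPM. The iron list's median log2 difference was 0.00631, below the 0.26 of all genes.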
